A study of Homo sapiens with 16 samples.

Results

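The nuclear factor kappa B (NF-κB) genes described here are the 5 subunits of the transcription factor family (RELA, NFKB1, RELB, NFKB2 and REL), 3 cytoplasmic inhibitors of the IκB family (NFKBIA, NFKBIB and NFKBIE), the nuclear IκB protein NFKBIZ and the upstream inhibitor TNFAIP3. They were chosen by symbol, and 10 of 10 were found among the 40663 symbols of the count table. RNA was sequenced from Ccd18-Co, a human colon fibroblast line, in 16 libraries that form 4 groups of 4. The groups asked whether changes in gene expression persist after repeated cytokine exposure and whether inhibitors of chromatin enzymes alter them. In the vehicle, belinostat and GSK-J4 groups, cells were given 3 pulses of IL-1B at 0.1 ng/ml together with 10 ng/ml of each of TNF, OSM and IL-17A. That IL-1B concentration is the one in the labels, and the study's text gives both it and a lower one. Each pulse lasted 72 h and was followed by 96 h of recovery. After 1 week of rest the vehicle group was given DMSO, the belinostat group belinostat at 250 nM, an inhibitor of histone deacetylases, and the GSK-J4 group GSK-J4 at 10 µM, which blocks H3K27 demethylases, for 5 days. These doses are those of the labels. The study's text names another dose for belinostat, and for its protein assays the same dose for both compounds, so the doses behind these libraries are uncertain. RNA was taken 2 weeks after the compound. The unstimulated group had no cytokines. Its titles name DMSO whereas its table columns name no compound. Ccd18-Co is a single line. The labels do not say whether libraries of a group came from separate cultures, and the study's text speaks of biological replicates for this setting but of fewer per group than were found here, so p-values may measure only the spread between these libraries, which may be technical.

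NF-κB factors are dimers of REL-homology proteins that IκB proteins hold inactive in the cytoplasm. TNF and IL-1 receptors activate the IκB kinase, IκB proteins are degraded, and dimers such as RELA with the p50 product of NFKB1 enter the nucleus and switch on inflammatory genes. Several of these target genes encode the pathway's own brakes, NFKBIA and TNFAIP3 among them. A slower, noncanonical branch processes the NFKB2 product p100 to p52, the partner of RELB.

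The sequences just before the transcription start are printed for TNFAIP3, NFKB2 and NFKB1, each of which differed between groups below, and for NFKBIA, the textbook feedback inhibitor. They are RefSeq sequences of the human build GRCh38.p14, read 5′ to 3′ on the strand of the gene. Bases downstream of the start in the GENCODE annotation were left off. Capitals mark matches of the kappa B consensus motif on either strand. The windows are chr6:137867009-137867213 (+ strand) for TNFAIP3, chr4:102501109-102501329 (+) for NFKB1, chr14:35404750-35404999 (-) for NFKBIA and chr10:102393860-102394109 (+) for NFKB2.
TNFAIP3: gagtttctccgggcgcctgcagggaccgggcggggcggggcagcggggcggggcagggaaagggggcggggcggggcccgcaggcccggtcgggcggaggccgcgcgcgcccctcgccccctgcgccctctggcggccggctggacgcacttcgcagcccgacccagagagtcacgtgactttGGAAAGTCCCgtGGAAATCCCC
NFKB1: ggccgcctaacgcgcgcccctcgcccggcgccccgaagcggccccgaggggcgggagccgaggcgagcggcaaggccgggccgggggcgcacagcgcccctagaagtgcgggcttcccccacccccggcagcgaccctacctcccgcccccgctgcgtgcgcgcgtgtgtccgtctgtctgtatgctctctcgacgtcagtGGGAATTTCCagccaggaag
NFKBIA: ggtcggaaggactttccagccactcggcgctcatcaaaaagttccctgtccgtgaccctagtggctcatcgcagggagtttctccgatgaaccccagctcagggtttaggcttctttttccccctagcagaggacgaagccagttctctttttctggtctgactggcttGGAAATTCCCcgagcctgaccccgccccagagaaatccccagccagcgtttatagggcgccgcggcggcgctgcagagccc
NFKB2: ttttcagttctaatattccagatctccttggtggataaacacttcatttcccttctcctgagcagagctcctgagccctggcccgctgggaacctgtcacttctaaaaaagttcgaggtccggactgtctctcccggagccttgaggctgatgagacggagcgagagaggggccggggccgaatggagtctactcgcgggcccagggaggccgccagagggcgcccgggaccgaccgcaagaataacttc

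In the GENCODE annotation of GRCh38, TNFAIP3 spans chr6:137867214-137883314 (+ strand), NFKB1 chr4:102501330-102617302 (+), NFKB2 chr10:102394110-102402524 (+), NFKBIA chr14:35401079-35404749 (-) and NFKBIE chr6:44258166-44265788 (-). A promoter entry matched 8 of the 10 members, NFKB1, NFKB2, REL, RELA, NFKBIA, NFKBIB, NFKBIZ and TNFAIP3, and the 250 bases before the RefSeq start were searched on both strands. The motif of GGGA and TTTCC separated by any 1 base, itself a case of the kappa B consensus, was found in 5 of the 8 (NFKB1, REL, NFKBIA, NFKBIZ and TNFAIP3) and in 0.5268% of 35116 promoters of that length. The kappa B consensus was found in the same 5 and in 9.9613% of promoters, and the looser motif of GGG and CC separated by any 5 bases, which takes in the others, in 7 of 8 and in 54.4253%. NFKB1, REL, NFKBIA and NFKBIZ each held GGGAATTTCC, 49 to 40 bases before the start in NFKB1 and 81 to 72 bases before it, on the reverse strand, in NFKBIA. TNFAIP3 held GGGACTTTCC and GGGGATTTCC on the reverse strand, 67 to 58 and 55 to 46 bases before the start. NFKB2, RELA and NFKBIB held no match of the consensus in this window, although the RELA window lies wholly upstream of the start that GENCODE gives, next to which no bases were searched. In REL the matches lay 47 to 37 bases before the RefSeq start, which is downstream of the start that GENCODE gives. Positions are counted from the RefSeq start, and the sequences printed for NFKB1 and TNFAIP3 end 30 and 46 bases before it. A match is a run of letters and was not tested for binding.

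Libraries held between 14.4 and 19.5 M estimated counts. The 10 listed fibroblast markers were all at or above 1 CPM (counts scaled to library size) in the mean over libraries and made up 2.68 to 3.39% of the counts of a library, whereas the listed epithelial, endothelial and leukocyte markers made up at most 0.00031, 0.00027 and 0.00416%. The fibroblast share was 2.91 to 3.09% in unstimulated, 3.11 to 3.19% in vehicle, 2.68 to 3.08% in belinostat and 3.26 to 3.39% in GSK-J4 libraries. It was therefore lower in each belinostat library than in any vehicle or GSK-J4 library, and its part in the differences below was not tested. In bulk RNA, fewer cells with a transcript and less of it per cell cannot be told apart.

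All 10 members passed the filter on low counts in every comparison. Values below are normalized counts, that is counts divided by a library size factor. Per kilobase of the MANE Select transcript, and as a mean over all libraries, RELA, whose protein carries a strong transactivation domain, was the highest member at 566 normalized counts per kb. NFKBIA followed at 512, NFKB1, which encodes p105 and p50, at 335 and NFKBIB at 326 normalized counts per kb. NFKB2 lay at 185, TNFAIP3, which encodes the ubiquitin-editing enzyme A20, at 57.4, NFKBIZ at 46.4 and NFKBIE at 43.5 normalized counts per kb. RELB at 23.02 and REL, best known from lymphocytes, at 18.6 normalized counts per kb were the lowest. Over libraries, the values per kb of RELA and NFKBIA overlapped, as did those of NFKB1 and NFKBIB, and those of each neighbouring pair from TNFAIP3 down to REL, whereas these 3 sets and NFKB2 did not overlap one another.

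**Figure D1:**
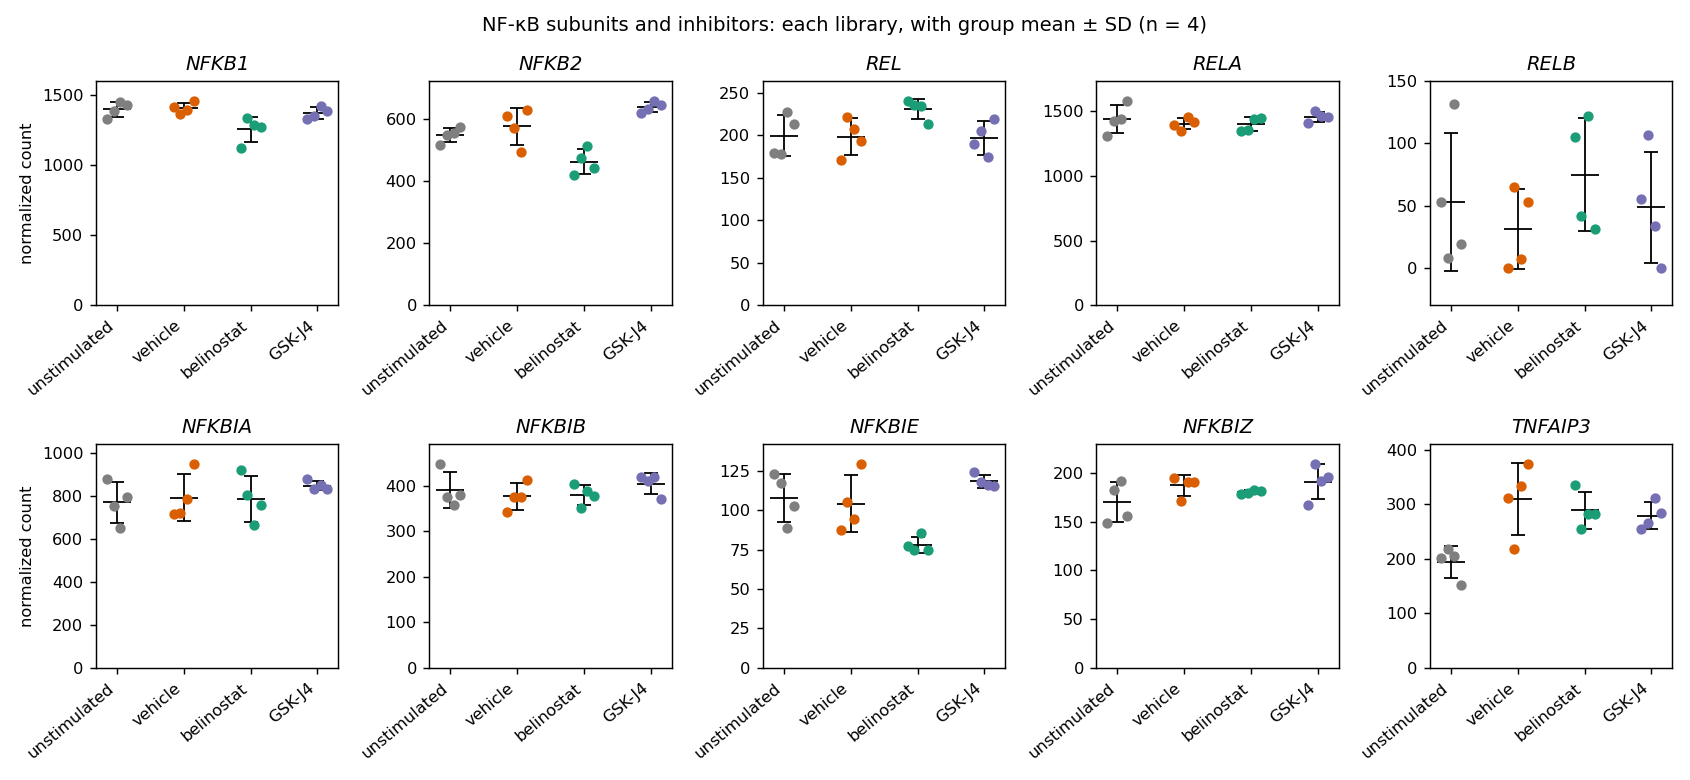
Normalized counts of the 10 members in each of the 16 libraries, with a panel and a linear vertical axis for each gene. Points are libraries and bars are group means ± SD (n = 4). TNFAIP3 lies at 152 to 218 in unstimulated libraries and at 218.5 to 373 in vehicle libraries, NFKB2 and NFKBIE are lowest in mean in belinostat, and RELB spans 0 to 131 within groups.

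Of the subunits, RELA had the group means that lay closest together for their level. It lay between 1309.6 and 1575 normalized counts over all libraries, its group means were between 1399 and 1456, and the groups overlapped in each comparison. REL lay between 170.4 and 239.6 normalized counts, with group means of 197 to 199 in unstimulated, vehicle and GSK-J4 libraries and 231 ± 12.0 (SD, n = 4) in belinostat libraries. Of the exonic length annotated for REL, 33.3% is shared with a long noncoding RNA gene on the same strand, so reads of the pair may have been split in counting.

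RELB, the partner of p52, varied most within groups. It was 53.1, 8.01, 131 and 19.5 normalized counts in unstimulated libraries 1 to 4 and 0, 65.2, 7.45 and 52.6 in vehicle libraries 13 to 16. It was 105, 41.5, 122 and 31.1 normalized counts in belinostat libraries 17 to 20 and 54.9, 106, 33.5 and 0 in GSK-J4 libraries 21 to 24. All 4 groups held both high and low libraries and all overlapped. The values of 0 in vehicle library 13 and GSK-J4 library 24 are estimated counts of 3.6e-05 and 0.015 that were rounded. A true count of 0 would allow up to 2.86 and 3.14 normalized counts there. That covers counting error only and not reads assigned to other transcripts. The SD of RELB within a group was 60.4 to 105% of its mean, and its dispersion, the spread of counts beyond sampling noise in DESeq2, was 1.61, higher than in 99.7% of genes with a mean from 0.5 to 2 times its own. Its comparisons therefore had wide 95% intervals, from -1.30 to 3.82 in log2 fold change for belinostat against vehicle, and no change in RELB was detectable at this spread. Its counts had decimals, as kallisto gives when reads are shared between transcripts, in 14 of 16 libraries. Decimals occurred in 16 of 16 libraries for NFKB2, REL, NFKBIB and TNFAIP3. They occurred in 6 for NFKBIZ, 4 for NFKB1, 2 for RELA and 0 for NFKBIA and NFKBIE. Whether shared reads bear on the spread of RELB was not tested.

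NFKBIZ, which acts in the nucleus with NF-κB dimers, had an SD within groups of 0.99 to 12.1% of its mean. It was 149 to 192 normalized counts in unstimulated libraries, 172 to 195 in vehicle, 179 to 182 in belinostat and 167 to 209 in GSK-J4 libraries. By the dispersion estimated from each gene's own counts, no gene with a mean from 0.5 to 2 times its own lay lower. Genes tied with it at that value were not counted, so this rank does not by itself show that NFKBIZ varied less than other genes. The dispersion that the fit used for NFKBIZ was 0.0060, above those of the more abundant NFKB1, RELA, NFKB2 and NFKBIB. NFKBIA lay between 652 and 947 normalized counts and NFKBIB between 343 and 448 over all libraries, and for both genes the ranges of all groups overlapped.

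The first comparison was of vehicle with unstimulated cells, which asks what remains of the cytokine pulses at the time of sampling. Of the 10 members 1 passed DESeq2's threshold of 0.05 on the p adjusted by Benjamini-Hochberg, namely the upstream inhibitor TNFAIP3, which was higher after cytokines. Over all 16240 genes tested, 1.74% were called (1.1% higher and 0.634% lower), and 6.93% had groups that did not overlap. No subunit and no IκB gene was called in either direction.

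TNFAIP3 was 202, 218.2, 205 and 152 normalized counts in unstimulated libraries 1 to 4. It was 312, 218.5, 332 and 373 normalized counts in vehicle libraries 13 to 16. Every vehicle library lay above every unstimulated library, although vehicle library 14 did so by less than 1 count, and the vehicle libraries were the more scattered. The log2 fold change was 0.67 (SE 0.15, 95% interval 0.37 to 0.97), a rise of 59.1%, with an adjusted p of 0.0014 in DESeq2 and 0.0278 in edgeR. TNFAIP3 was also higher in each of the other groups given cytokines, at 336, 255, 283 and 282 normalized counts in belinostat libraries 17 to 20 and 255, 265, 312 and 284 in GSK-J4 libraries 21 to 24. None of these 8 libraries overlapped the unstimulated ones. Against unstimulated cells TNFAIP3 rose with belinostat by 0.57 on the log2 scale (adjusted p = 0.0033 in DESeq2, SE 0.15) and with GSK-J4 by 0.52 (adjusted p = 0.0162, SE 0.15). The latter call was lost without unstimulated library 4 (0.42, DESeq2 adjusted p = 0.111) and without GSK-J4 library 23 (0.46, 0.0868). These 3 comparisons share the unstimulated libraries.

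The other members differed little between vehicle and unstimulated cells. Their log2 fold changes ran from -0.05 to 0.14 apart from RELB at -0.76 (SE 1.31), and the smallest DESeq2 adjusted p was 0.851, for NFKBIZ at 0.14. NFKB2 lay at 0.07, REL at -0.01 and NFKBIB at -0.05 on the log2 scale. The 95% intervals of NFKB1 (-0.10 to 0.12) and RELA (-0.14 to 0.07) were narrow, those of NFKBIA (-0.18 to 0.26) and NFKBIE (-0.34 to 0.24) wider. Over the 10 members 5 values were positive and 5 negative, with a median log2 fold change of -0.0017, beside -0.0048 over all genes tested.

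**Figure D2:**
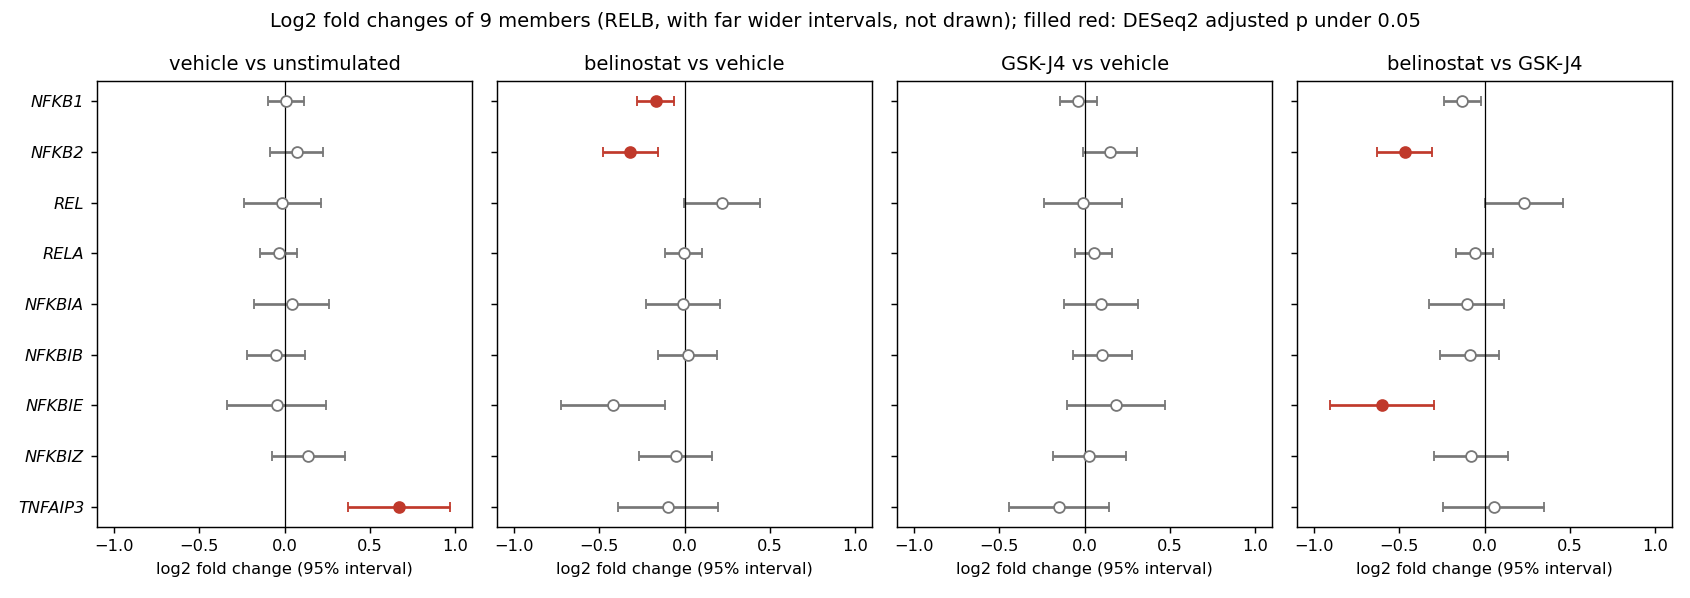
Log2 fold changes of 9 members in 4 comparisons, a panel each, with 95% intervals from DESeq2 on a linear axis (RELB, with far wider intervals, is not drawn). Filled red points were called at an adjusted p under 0.05. TNFAIP3 was called at 0.67 in vehicle against unstimulated cells, NFKB2 at -0.32 and NFKB1 at -0.17 in belinostat against vehicle, NFKB2 at -0.47 and NFKBIE at -0.60 in belinostat against GSK-J4, and none of the 9 in GSK-J4 against vehicle.

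In belinostat against vehicle libraries, both precursor subunits were called lower and no member was called higher. NFKB2 fell by 0.32 and NFKB1 fell by 0.17 on the log2 scale. These were 2 of 10 members called, where 6.26% of 14209 genes were called (3.12% higher and 3.13% lower). RELA, NFKBIA and NFKBIB lay within 0.02 of 0 on the log2 scale, with 95% intervals of -0.11 to 0.10, -0.23 to 0.21 and -0.16 to 0.19.

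NFKB2, the p100 and p52 gene of the noncanonical branch, was 611, 571, 496 and 629.8 normalized counts in vehicle libraries 13 to 16 and 420.1, 475, 513.5 and 443 in belinostat libraries 17 to 20. A single pair overlapped, belinostat library 19 being above vehicle library 15. The log2 fold change was -0.32 (SE 0.08, 95% interval -0.48 to -0.16), a mean that was lower by 19.9%, with an adjusted p of 0.0034 in DESeq2 and 0.0161 in edgeR. In unstimulated libraries NFKB2 was 518, 551, 554 and 575 normalized counts, so all belinostat libraries also lay below all cells that had never received cytokines. That difference was -0.25 (SE 0.08, DESeq2 adjusted p = 0.0301), and 7 of 13 alternative fits lost this call, 6 of them by leaving out 1 library (unstimulated 2, 3 or 4, or belinostat 17, 18 or 20), with values from -0.26 to -0.20 and adjusted p up to 0.125.

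NFKB1 was 1416, 1362, 1394 and 1453 normalized counts in vehicle libraries 13 to 16. It was 1121, 1333, 1288 and 1269.8 normalized counts in belinostat libraries 17 to 20. The groups did not overlap, where 11.4% of all genes tested had groups that did not overlap, and belinostat library 17 was the lowest of all 16. The log2 fold change was -0.17 (SE 0.06, 95% interval -0.28 to -0.06), with an adjusted p of 0.0391 in DESeq2 but 0.0767 in edgeR. The call was also lost in a fit of these groups alone (adjusted p = 0.151) and without vehicle library 13, 14, 15 or 16 or belinostat library 17 or 20, with log2 fold changes from -0.18 to -0.12 and adjusted p from 0.0543 to 0.159. Against unstimulated cells, where NFKB1 was 1327, 1386.5, 1449.7 and 1427 normalized counts, the difference was -0.16 on the log2 scale (adjusted p = 0.0404 in DESeq2, SE 0.06), 9 of 13 alternatives lost the call, and the groups overlapped. Leaving out unstimulated library 2, 3 or 4 or belinostat library 17, 19 or 20 gave -0.17 to -0.11, with adjusted p up to 0.173.

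NFKBIE, which encodes IκB epsilon, had the most negative value of the inhibitors in this comparison but was not called. It was 87.6, 105, 94.1 and 129 normalized counts in vehicle libraries 13 to 16 and 77.3, 74.5, 85.2 and 74.8 in belinostat libraries 17 to 20. The groups did not overlap and the belinostat libraries were the tighter. The log2 fold change was -0.42 (SE 0.16, 95% interval -0.72 to -0.11), with an adjusted p of 0.0942 in DESeq2 and 0.0834 in edgeR, and none of 13 alternatives called it. Against unstimulated libraries, at 123, 117, 88.8 and 103 normalized counts, NFKBIE was called at -0.46 (SE 0.16, DESeq2 adjusted p = 0.0325). Leaving out unstimulated library 1, 2 or 4 or belinostat library 17, 18 or 20 lost that call, with values from -0.49 to -0.39 and adjusted p up to 0.153.

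Of the members without a call, REL had a log2 difference of 0.22 (SE 0.11, DESeq2 adjusted p = 0.336) between belinostat and vehicle, RELB of 1.26 (SE 1.31, 0.75) and NFKBIZ of -0.05 (SE 0.11, 0.906). TNFAIP3 was at -0.10 (95% interval -0.39 to 0.20, DESeq2 adjusted p = 0.862). Of the 10 members 3 had log2 differences above 0 and 7 below it, the median was -0.03, and the median over all genes tested was 0.0029. Against unstimulated cells, 4 of 10 members were called with belinostat, TNFAIP3 higher and NFKB1, NFKB2 and NFKBIE lower, where 10.3% of 14209 genes were called (5.51% higher and 4.77% lower). Of these, TNFAIP3, NFKB2 and NFKBIE had groups that did not overlap, beside 12.3% of all genes tested. The other members lay at 0.21 (REL), -0.04 (RELA), 0.50 (RELB), 0.03 (NFKBIA), -0.03 (NFKBIB) and 0.09 (NFKBIZ) on the log2 scale, with DESeq2 adjusted p from 0.292 up. In the same comparison CD14, 1 of the 7 listed leukocyte markers, was called higher, at 71.8 ± 33.4 normalized counts (SD, n = 4) in unstimulated and 196 ± 72.2 in belinostat libraries, a log2 difference of 1.45 (adjusted p = 0.0011 in DESeq2 and 0.0156 in edgeR). The CD14 values of these groups overlapped. CD68, the only other leukocyte marker tested in this comparison and the more abundant, lay the other way and was not called. It was 291 ± 71.5 normalized counts in unstimulated and 257 ± 147 in belinostat libraries. CD3E, MS4A1 and ITGAM were at 0 in the mean over libraries, and the summed leukocyte share was 0.00148 to 0.00282% in unstimulated and 0.00168 to 0.00416% in belinostat libraries. Its part in the differences was not tested.

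In GSK-J4 against vehicle libraries no member was called by DESeq2 or edgeR, and 0 of 10 had an unadjusted p under 0.05. Of 13197 genes 1.92% were called (1.1% higher and 0.818% lower) and 10% had groups that did not overlap, whereas the groups overlapped for all 10 members. NFKB2 was 620.4, 634, 657 and 645 normalized counts in GSK-J4 libraries 21 to 24, against 496 to 629.8 in vehicle libraries. Its log2 fold change was 0.15 (SE 0.08, 95% interval -0.01 to 0.30, DESeq2 adjusted p = 0.547). NFKBIE was at 0.18 (95% interval -0.10 to 0.47) and TNFAIP3 at -0.15 (95% interval -0.44 to 0.14). The other members lay at -0.04 (NFKB1), -0.01 (REL), 0.05 (RELA), 0.64 (RELB), 0.098 (NFKBIA), 0.10 (NFKBIB) and 0.03 (NFKBIZ) on the log2 scale. The median over the members was 0.075, beside -0.0025 over all genes tested. Against unstimulated cells 1 of 10 members was called with GSK-J4, TNFAIP3, where 5.55% of 16747 genes were called (3.18% higher and 2.37% lower) and 11.9% had groups that did not overlap. NFKB2 did not overlap the unstimulated libraries and lay 0.22 higher on the log2 scale, with an adjusted p of 0.0934 in DESeq2 (SE 0.08) and of 0.0376 where these groups alone were fitted. The other members lay at -0.03 (NFKB1), -0.02 (REL), 0.02 (RELA), -0.12 (RELB), 0.14 (NFKBIA), 0.05 (NFKBIB), 0.14 (NFKBIE) and 0.17 (NFKBIZ), with DESeq2 adjusted p from 0.524 up.

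The compounds were also compared directly, over the same times and at the doses the labels give, 250 nM belinostat and 10 µM GSK-J4, which the study's text gives otherwise. NFKB2 and NFKBIE were lower with belinostat than with GSK-J4, 2 of 10 members, where 12.2% of 14717 genes were called (6.18% higher and 6.01% lower) and 17% had groups that did not overlap. The log2 difference of NFKB2 was -0.47 (SE 0.08, 95% interval -0.63 to -0.31), with an adjusted p of 5.8e-07 in DESeq2 and 0.0004 in edgeR. NFKBIE was 124, 118, 116 and 115 normalized counts in GSK-J4 libraries 21 to 24 against 74.5 to 85.2 in belinostat libraries. Its log2 difference was -0.60 (SE 0.15, 95% interval -0.90 to -0.30), with an adjusted p of 0.0019 in DESeq2 and 0.0053 in edgeR. Neither gene overlapped between these groups, and all 13 alternatives called both. NFKB1 was at -0.13 (SE 0.06, DESeq2 adjusted p = 0.109), and TNFAIP3 at 0.05 (95% interval -0.24 to 0.35). The other members lay at 0.23 (REL), -0.06 (RELA), 0.62 (RELB), -0.11 (NFKBIA), -0.09 (NFKBIB) and -0.08 (NFKBIZ), with DESeq2 adjusted p from 0.213 up.

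Within groups, the cytoplasmic inhibitors tended to have their highest value in the same library. NFKBIA, NFKBIB and NFKBIE were all highest in unstimulated library 1, in vehicle library 16 and in GSK-J4 library 21, and in belinostat no library was highest for all 3. They were all lowest in unstimulated library 3 and in vehicle library 13. Vehicle library 16 held the highest vehicle value of 6 of the 10 members, and of 30.8% of 11741 genes with a mean of at least 50 counts. It also held the lowest vehicle value of 31.9% of these genes. Unstimulated library 1 held the highest value of its group for 35.2% and the lowest for 32.0%. GSK-J4 library 21 did so for 23.2% and 22.6%. Both libraries also held the lowest value of their group for NFKB1, NFKB2, RELA and NFKBIZ. The lowest value lay in unstimulated library 3 for 33.8% and in vehicle library 13 for 23.6%, and the highest for 30.3% and 23.1%. This is a description of libraries that share preparation and depth, and whether it is particular to these genes was not tested.

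**Figure D3:**
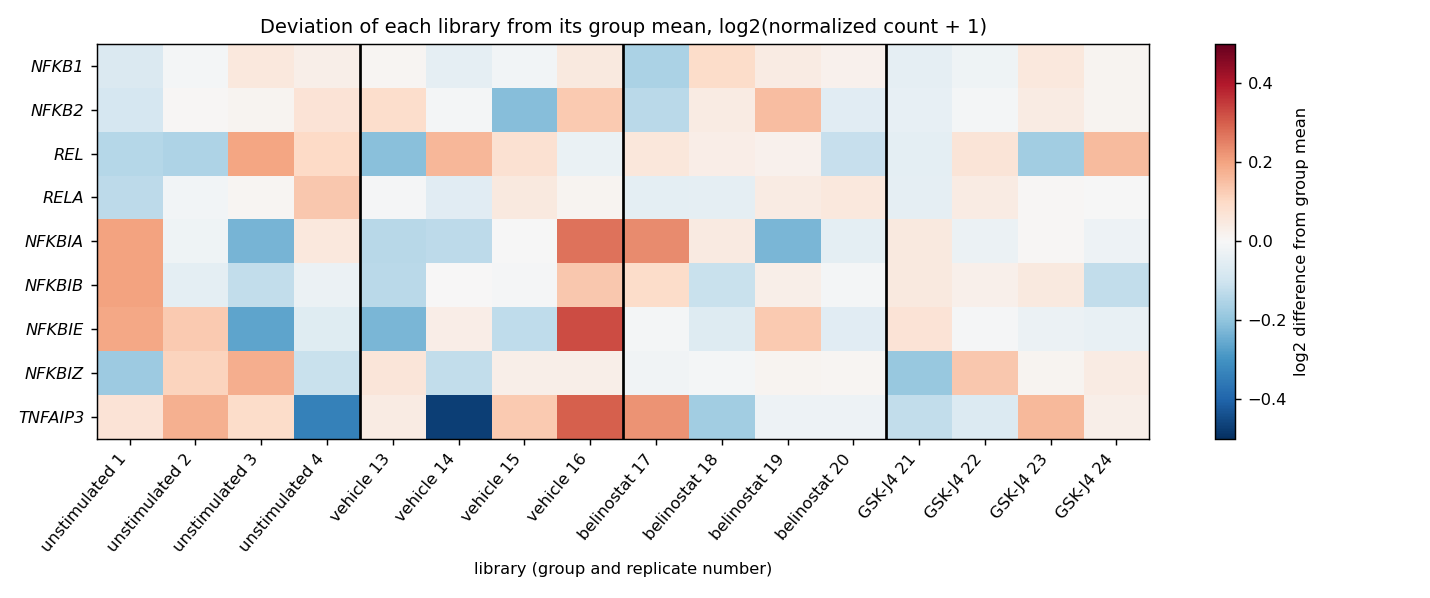
Deviation of 9 members (RELB is not drawn) from the mean of their own group, as log2 of the normalized count plus 1, with genes in rows and libraries in columns ordered by group. Red is above and blue below the group mean. NFKBIA, NFKBIB and NFKBIE share their highest library in 3 of 4 groups, and NFKBIZ deviates least in belinostat.

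Upstream of the members, all 23 listed adaptors and kinases were tested. In vehicle against unstimulated cells 1 was called, IRAK3, an inhibitory member of the IRAK family, which rose by 1.26 on the log2 scale, and none fell, where 1.74% of all genes were called. Leaving out unstimulated library 3 or vehicle library 13 gave 2 calls. IRAK3 was 77.4 ± 5.34 normalized counts (SD, n = 4) in unstimulated and 185 ± 2.00 in vehicle libraries. It was 175 ± 5.99 with belinostat and 165 ± 23.9 with GSK-J4. In belinostat against vehicle 2 of 23 fell and none rose, a share of 8.7% beside 6.26% of all genes called (3.13% lower), so the count is near that of all genes. IKBKB, the IκB kinase beta subunit, fell from 1542 ± 71.5 to 1272 ± 65.1 normalized counts (log2 fold change -0.28, DESeq2 adjusted p = 0.0001). IKBKE, a noncanonical IκB kinase, fell from 305 ± 31.2 to 233 ± 18.2 (-0.40, DESeq2 adjusted p = 0.0014). In GSK-J4 against vehicle 0 of 23 were called by DESeq2 or edgeR, and 2 had an unadjusted p under 0.05. Between the compounds 3 of 23 were lower with belinostat, the adaptor TRAF3IP2 (-0.46), IKBKB (-0.22) and TRAF5 (-0.29), and none was higher. That share of 13.0% was close to the 12.2% of all genes called.

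Of 15 other inhibitors and regulators 14 were tested. In vehicle against unstimulated cells 0 were called by DESeq2 or edgeR, and 1 had an unadjusted p under 0.05. BCL3, an atypical IκB protein that binds p50 and p52 dimers, was the only one of 14 called in belinostat against vehicle, where 6.26% of all genes were called. It was 648 to 721 normalized counts in vehicle libraries and 473 to 502 in belinostat libraries, a log2 fold change of -0.48 (SE 0.07). In GSK-J4 against vehicle 0 of 14 were called by DESeq2 or edgeR and 0 had an unadjusted p under 0.05. Between the compounds BCL3 was lower with belinostat (-0.47), and the deubiquitinase CYLD (0.19) and the A20-binding protein TAX1BP1 (0.13) were higher, where 12.2% of all genes were called. The TAX1BP1 call was lost in edgeR (adjusted p = 0.0568), in a fit of these groups alone (0.114), and without belinostat library 17 or 18 or GSK-J4 library 22 or 24 (0.0812 to 0.124).

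Target genes of NF-κB were listed from textbook knowledge, and the study displayed CXCL1, CXCL2, CXCL3 and CXCL8 among them on these or related libraries, so these are not independent of the data. The whole list, like the others, was chosen with earlier results of these data known. Its counts beside the shares of all genes are therefore a description and no independent test. In vehicle against unstimulated cells 4 of 28 rose and none fell, where 1.1% of all genes were called higher. They were the chemokines CXCL8 (log2 fold change 2.36), CXCL3 (0.97) and CXCL1 (0.75) and the complement component C3 (2.02), whereas CXCL2, named after its value was seen, was not called (0.75, DESeq2 adjusted p = 0.329). The median over the 28 was 0.33, beside -0.0048 over all genes tested. In belinostat against vehicle 4 of 24 fell and none rose, where 3.13% of all genes were called lower. The count became 2 without vehicle library 16 or belinostat library 18 and 7 without belinostat library 17. CCL2, a monocyte chemokine, fell from 1325 ± 136 to 271 ± 67.0 normalized counts (log2 fold change -2.29), and CXCL1 (-0.54), CXCL8 (-0.75) and C3 (-0.62) fell with it. The CXCL8 call was lost without vehicle library 16 (-0.47, DESeq2 adjusted p = 0.116) or belinostat library 18 (-0.68, 0.0572). The C3 call was lost in edgeR (adjusted p = 0.0609) and without vehicle library 13 or 16 or belinostat library 18 (-0.59 to -0.43, adjusted p from 0.0771 to 0.162). The median over the 24 genes was -0.05.

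In GSK-J4 against vehicle 1 of 21 target genes rose, C3, by 1.03 on the log2 scale, at 441 ± 124 normalized counts in vehicle and 903 ± 184 in GSK-J4 libraries, where 1.1% of all genes were called higher. A fit of these groups alone called 5. Between the compounds 6 of 26 target genes were lower with belinostat and 1 was higher, where 6.01% of all genes were called lower and 6.18% higher. The lower ones included CCL2 (-2.16), C3 (-1.65), LIF (-1.45), PTGS2, the inducible prostaglandin synthase (-1.38) and TNFAIP6 (-2.08), and the higher one was GADD45B (0.55). TNFAIP6 rested on few counts, at 4.6 normalized counts in mean with belinostat and 20.0 with GSK-J4.

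Against unstimulated cells, genes of these lists were called in both directions, where 5.51% of all genes were called higher and 4.77% lower with belinostat and 3.18% and 2.37% with GSK-J4. With belinostat, IRAK3 rose (1.18) and IKBKB (-0.24), TRAF5 (-0.27) and MAP3K14, the NF-κB-inducing kinase of the noncanonical branch (-0.32), fell among 23 kinases and adaptors, while BCL3 fell (-0.37) and CYLD rose (0.22) among 14 regulators. Of 24 target genes 5 rose, CXCL8 (1.60), C3 (1.40), CXCL3 (0.61), the adhesion molecule ICAM1 (0.37) and the caspase-8 inhibitor CFLAR (0.20), and CCL2 fell (-2.16). The calls of MAP3K14, CXCL3, ICAM1 and CFLAR were each lost in more than 6 of 13 alternatives, and edgeR called 3 of the 6 target genes. Without unstimulated library 2 or belinostat library 18 the target calls were 3, and without unstimulated library 4 the kinase and adaptor calls were 2 in place of 4. With GSK-J4, IRAK3 rose (1.096) and IRAK1 fell (-0.23) among the kinases and adaptors. The IRAK1 call was lost in edgeR and without unstimulated library 1, 2 or 4 or GSK-J4 library 22, 23 or 24 (-0.23 to -0.20, DESeq2 adjusted p from 0.0949 to 0.155). Of the 14 regulators 0 were called by DESeq2 or edgeR, and 2 had an unadjusted p under 0.05. Of 28 target genes 9 rose, among them C3 (3.06), CXCL8 (2.25), PTGS2 (1.80), TNFAIP6 (1.80) and CXCL1 (0.49), and 1 fell, GADD45B (-0.47).

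**Figure D4:**
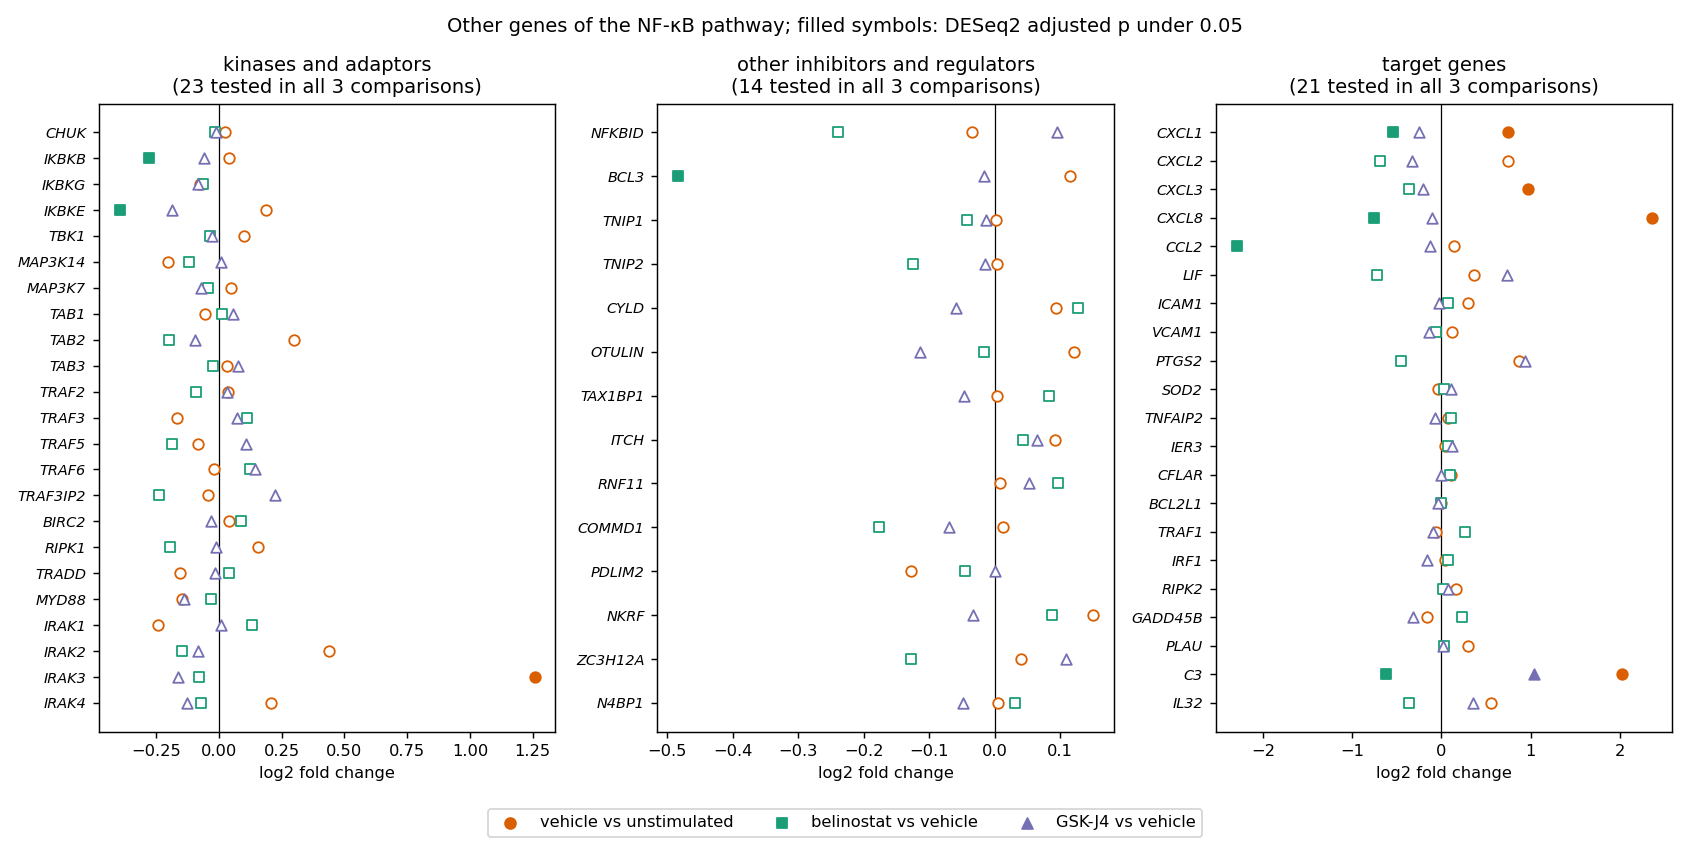
Log2 fold changes of the genes of the 3 pathway lists in vehicle against unstimulated, belinostat against vehicle and GSK-J4 against vehicle, for the 23 kinases and adaptors, 14 regulators and 21 target genes tested in all 3. Circles, squares and triangles stand for these comparisons, the horizontal axes are linear and differ between panels, and filled symbols were called at an adjusted p under 0.05. Most kinases, adaptors and regulators lie near 0, and most target genes lie above 0 after cytokines. The called target genes lie above 0 after cytokines and below 0 with belinostat, and C3 alone is called with GSK-J4, above 0.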

How the data were processed

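RNA-seq of 16 Ccd18-Co libraries was analysed in the 4 groups of 4 given by the labels. The authors quantified reads with kallisto 0.48.0 at default settings, and the submitters' processing notes also list FastQC 0.11.9, MultiQC 1.14 and hg38. The deposited values are estimated counts per symbol, not scaled to library size, and 28.0% had decimals. kallisto shares reads among similar transcripts, so overlapping genes can trade counts. The release of the transcripts and the use of strand were not given in the sources used here.

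Counts were rounded to whole numbers. DESeq2 1.42.0 (R 4.3.3), which the study's methods name, was fitted to all libraries at once with group as the factor and with median-of-ratios size factors. Wald p-values were adjusted by the Benjamini-Hochberg method over all genes tested, and 0.05 was the threshold. Fold changes were not shrunken, and intervals are 95%. edgeR 4.0.16 (quasi-likelihood) was the alternative test, on genes kept by filterByExpr (about 10 counts in at least 4 libraries). Replicates differed by more than sampling noise, with a mean squared deviation of 2.97 to 31.6 where sampling noise alone gives 1. This does not show whether they came from separate cultures. All libraries were kept. The tests were checked on simulated data. Lengths and overlaps came from GENCODE v44 (GRCh38).

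All 10 members are named in each comparison. Of the pathway lists, at most 6 called genes a list and comparison are named, by smallest adjusted p. The members and lists were chosen with earlier results of these data known. Depth was 14.4 to 19.5 M counts per library, and intervals on counts cover counting error only.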

Additional observations from a re-analysis of the deposited data

Results flagged for a closer look

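NFKBIB in GSK-J4 library 24 stood apart from the other libraries of its group. It was 371 normalized counts, below 412 to 419 in the other GSK-J4 libraries. It was the only value so marked among the 40 sets of 4 libraries examined for the 10 members, and chance marks about 1 in 20 such sets.

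NFKB2 and NFKBIE differed between the compounds, by the direct contrast of belinostat with GSK-J4 in DESeq2, where 12.2% of all genes tested were called. Their log2 differences were -0.47 and -0.60. Against vehicle, NFKB2 was at -0.32 with belinostat and 0.15 with GSK-J4, and NFKBIE at -0.42 and 0.18. Of these, only NFKB2 with belinostat was called. Both contrasts with vehicle use the same vehicle libraries.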

How the results depend on the processing

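The alternatives were edgeR, other size factors, a filter on low counts, a fit without the other groups, and leaving out each library in turn. The number of members called was within 1.5 times its value under each alternative in vehicle against unstimulated (1), GSK-J4 against vehicle (0) and belinostat against GSK-J4 (2). In belinostat against vehicle it was 2, and 1 in edgeR, 1 in a fit without the other groups, and 1 to 2 when a library was left out. NFKB2 kept its call in all 13 alternatives. In belinostat against unstimulated it was 4, and 1 in a fit without the other groups and 1 to 3 when a library was left out. In GSK-J4 against unstimulated it was 1, and 2 in a fit without the other groups and 0 to 1 when a library was left out. The log2 fold changes of members kept their direction and side of the threshold in 704 of 780 alternatives, lost the call in 33, gained it in 1 and changed sign in 42. The sign changes all came from leaving out a library in values that were not called. Without 1 library each, log2 fold changes ran, in vehicle against unstimulated, from -0.016 to 0.028 for NFKB1, -0.070 to 0.059 for REL, -0.077 to 0.012 for RELA, -1.41 to 0.22 for RELB, -0.058 to 0.11 for NFKBIA, -0.098 to 0.021 for NFKBIB and -0.17 to 0.027 for NFKBIE. They ran, in belinostat against vehicle, from -0.024 to 0.013 for RELA, -0.093 to 0.090 for NFKBIA, -0.026 to 0.064 for NFKBIB and -0.23 to 0.0081 for TNFAIP3. They ran, in GSK-J4 against vehicle, from -0.076 to 0.047 for REL, -0.086 to 1.28 for RELB and -0.017 to 0.089 for NFKBIZ. They ran, in belinostat against GSK-J4, from -0.028 to 0.11 for TNFAIP3. They ran, in belinostat against unstimulated, from -0.081 to 0.0074 for RELA, -0.052 to 0.10 for NFKBIA and -0.076 to 0.040 for NFKBIB. They ran, in GSK-J4 against unstimulated, from -0.078 to 0.047 for REL, -0.024 to 0.064 for RELA and -0.85 to 0.86 for RELB. The cause of these changes was not tested. No paired analysis was possible because the groups share no replicate numbers. RELB had the fewest counts of the members, 841 over all libraries, and its comparisons were limited by its spread between libraries.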
